A study of Oryza sativa Japonica Group with 96 samples.

Results

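Class III peroxidases are secreted plant enzymes that use hydrogen peroxide to oxidise phenolic compounds. In the cell wall they couple monolignols into lignin and cross-link phenolic groups and wall proteins, which stiffens the wall, and in another reaction cycle they can form reactive oxygen species that loosen it. In roots they are known for work in elongation, in lignified barriers such as the Casparian strip, and in defence, and the family is large in rice.

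The genes described here are the 5 class III peroxidase genes LOC4339222 (synonym PRX74), PRX112 (synonym POXGX9), LOC4344281, LOC4344277 and LOC4344045 (synonym R1C-Prx). They were taken by their row in the deposited expression table, 5 of its 36643 features and 5 of the 24161 features with 1 gene symbol. The annotated names and synonyms were searched for the word peroxidase, for PRX followed by a number and for R1C-Prx. With ascorbate and glutathione peroxidases left out, this gave the same 5 features. Names with POX alone were not searched for. Most rice genes in this annotation carry a LOC symbol without a family name, so other members of the family may lie among the unnamed features and were not analysed here. LOC4339222 is on chromosome 5 and the other 4 genes are on chromosome 7. In the gene order of RefSeq assembly ASM3414082v1, LOC4344277 and PRX112 are direct neighbours and 1 gene lies between PRX112 and LOC4344281, while LOC4344045 lies at least 294 genes away from these 3. The array features of neighbouring members of a family can share similar probes, and whether they did was not tested.

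The study used 96 Affymetrix arrays, 1 per sample, on the stem base of rice, the seedling tissue from which crown roots emerge. In DXC the crl1 mutant of cultivar Taichung 65 was transformed with the pINDEX2 vector holding the CRL1 gene, a transcription factor gene needed for crown roots, behind a dexamethasone-controlled promoter. In DX the same mutant carried empty pINDEX2, so both lines were crl1 mutants and both received the inducer. The DXC plants came from a single transgenic line, named DXC3 in an earlier publication per the labels' protocols. Plantlets of both lines grew for 5 days in dishes and rested for 24 h in flasks before 1 µM dexamethasone was added, and the medium was replaced after 5 h. The day length was 14 h for all samples. Sampling was at 3 h steps up to 45 h after the inducer was added, with 10 to 15 stem bases per sample. Each line had 48 arrays, 3 at each hour, 1 from each of 3 independent experiments.

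The deposited values are log2 expression values normalized by the authors, with array medians from 4.62 to 4.76. No background level or detection call was used here. The precision of a mean depends on how many arrays stand behind it and on the spread of the feature. A level of 1 feature is not set against that of another here, since probes differ in brightness. Of the shoot meristem genes that mark the stem base, OSH1 ran from 4.71 to 5.72 in DXC and from 4.87 to 5.95 in DX, and OSH43 from 3.00 to 3.49 in DXC and from 2.94 to 3.90 in DX. The lowest value of the whole table was 1.82. In such bulk tissue, fewer cells of a type and less RNA per cell cannot be told apart. The arrays of 0 to 9 h differed in spread between the lines, with a mean SD over features of 1.65 in DXC and 1.52 in DX (12 arrays each).

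PRX74 had the clearest course of the 5 genes. Before induction it was at 6.71, 7.04 and 6.95 in DXC (experiments 1, 2 and 3), against 6.09, 6.43 and 5.94 in DX. The DXC arrays were thus all above the DX arrays at 0 h, as in 12.1% of all features, and the difference of 0.75 (SE 0.41) had an adjusted p of 0.405 in limma. At 3 h the order was the same, with 6.68, 6.79 and 6.72 in DXC and 5.68, 6.44 and 5.33 in DX, as in 16.4% of all features, and DXC was not called lower than at 0 h by then.

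The DXC level of PRX74 was lower at 12 h than at 3 h in each experiment. It was 5.68, 6.52 and 6.01 in DXC at 6 h, against 5.80, 6.97 and 5.44 in DX, so the lines overlapped. At 9 h it was 4.33, 5.71 and 5.51 in DXC, against 5.25, 6.71 and 5.20 in DX. At 12 h it stood at 4.67, 4.44 and 4.50 in DXC, against 6.16, 6.48 and 6.64 in DX. Each DXC array of 12 h was therefore below each DX array of that hour, as in 8.15% of all features. From 3 h to 12 h the DXC values changed by -2.02, -2.34 and -2.22 in experiments 1, 2 and 3, against 0.49, 0.05 and 1.31 in DX. In DXC the step from 9 h to 12 h was still downward in experiments 2 and 3 and slightly upward, by 0.34, in experiment 1.

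After 12 h PRX74 stayed low in DXC. Over the 36 arrays of 12 to 45 h its lowest, median and highest values were 3.90, 4.50 and 5.57 in DXC, against 4.59, 6.14 and 6.82 in DX. The hourly means of DXC in that span lay between 4.33 ± 0.08 at 36 h and 4.93 ± 0.56 at 21 h (SD, n = 3), a range no wider than the larger of the SDs within those hours, which reached 0.65. The DX means lay between 5.50 ± 0.80 at 33 h and 6.43 ± 0.24 at 12 h. Ordered by level, the DXC hours ran from 0 h (6.90 ± 0.17) over 3 h (6.73 ± 0.05), 6 h (6.07 ± 0.42) and 9 h (5.18 ± 0.75) down to all later hours. Neighbours in this order did not differ beyond their spread at 0 and 3 h or among the hours from 12 h on.

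**Figure D1:**
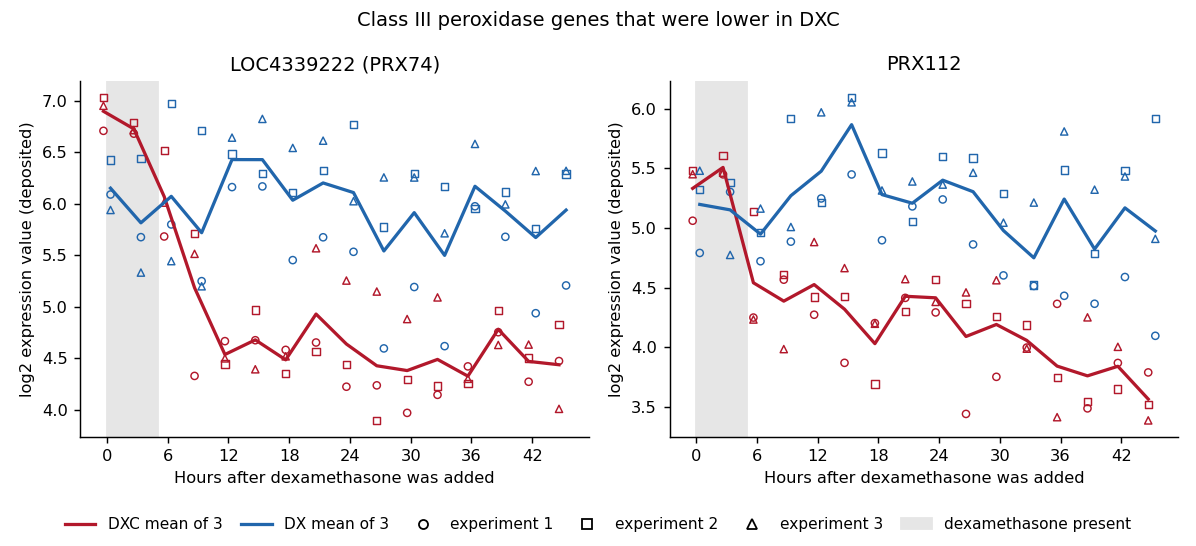
Deposited log2 expression values (vertical axes) of LOC4339222 (PRX74) and PRX112 against hours after dexamethasone was added, with points for the 3 experiments (drawn slightly apart for the lines), lines for the means of 3 arrays and grey for the time with dexamethasone. From 12 h on, PRX74 lay between 3.90 and 5.57 in DXC and between 4.59 and 6.82 in DX, and PRX112 between 3.39 and 4.88 in DXC and between 4.10 and 6.10 in DX.

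To take account of the difference at 0 h, the lines were compared over an early (3 to 9 h), a middle (12 to 24 h) and a late window (27 to 45 h), each as the DXC minus DX difference from which the 0 h one was subtracted. PRX74 was 5.04-fold lower in the middle window (log2 difference -2.33, SE 0.44; limma with Benjamini-Hochberg adjustment, adjusted p = 0.00274). In the late window it was 4.24-fold lower (-2.08, SE 0.43; adjusted p = 0.0132). The 3 experiments gave -1.86, -2.45 and -2.70 in the middle window and -1.47, -2.24 and -2.55 in the late window, all of 1 sign. The early difference of -0.62 (SE 0.47) did not pass the test (adjusted p = 0.849), with -0.63, -0.98 and -0.26 in the experiments. Of the 5 genes PRX74 was the only one called in the middle and in the late window, 1 of 5 each time, while 0.347% of all features were called in the middle window and 0.248% in the late one. None of the 5 was called in the early window by limma (0 of 5, also at an unadjusted p under 0.05), against 0.333% of all features.

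The window calls of PRX74 were lost without experiment 2 or experiment 3. Without experiment 2 the middle difference was -2.28 (adjusted p = 0.250) and the late one -2.01 (adjusted p = 0.330). Without experiment 3 they were -2.15 (adjusted p = 0.180) and -1.85 (adjusted p = 0.182). Without experiment 1 both stayed under the threshold, at 0.0285 in the middle window and 0.0291 in the late window. In these smaller fits 5 to 47 features of the whole table were called in the middle window, against 127 with all arrays.

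Part of these differences is the 0 h difference that was subtracted. With no subtraction PRX74 was lower in DXC by a log2 difference of -1.59 over the middle window (adjusted p = 4.82e-10) and -1.34 over the late window (adjusted p = 7.09e-10), and both were called whichever experiment was left out. In these comparisons 5.99% of all features were called in the middle window and 5.13% in the late window. The fit behind these values treats the hours of an experiment as independent arrays. With sets of consecutive hours as a random block, the correlation within a set was estimated at 0.44. The adjusted p of PRX74 in limma were then 7.62e-07 in the middle window and 2.3e-06 in the late window. The early difference without subtraction was 0.13 (adjusted p = 0.651), and its sign rested on experiment 3. The experiments gave -0.011, -0.37 and 0.76, and the value was -0.19 without experiment 3 and -0.0031 after quantile normalization.

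Within each line, against its own 0 h, the loss of PRX74 transcript lay in DXC. The DXC windows were at -0.90 (early, adjusted p = 0.268), -2.25 (middle, adjusted p = 2.05e-06) and -2.43 (late, adjusted p = 2.52e-07) relative to 0 h. In DX the same windows were at -0.28, 0.09 and -0.34 (adjusted p = 0.878, 0.981 and 0.837), with 0%, 0.0191% and 0.207% of all features called. With an experiment left out, the DX values ran from -0.57 to -0.12 in the early window, from -0.16 to 0.28 in the middle one and from -0.65 to -0.055 in the late one, and none was called. The middle and late falls in DXC were called whichever experiment was left out, with adjusted p of at most 0.00507 and 0.0019, and 1.35%, 2.47% and 3.3% of all features were called in the early, middle and late windows of DXC. Hour by hour, PRX74 was below its 0 h level in DXC at 13 of 15 hours by the test, from 9 h (-1.71, adjusted p = 0.0186) to 45 h (-2.46, adjusted p = 9.45e-05), with the deepest value at 36 h (-2.57, adjusted p = 3.87e-05). In DX it was called at 0 of 15 hours, with none at an unadjusted p under 0.05. With experiment 2 left out the hours called in DXC dropped to 4, against 11 without experiment 1 and 12 without experiment 3.

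PRX112 followed a course of the same direction with smaller differences. At 0 h it was at 5.06, 5.48 and 5.45 in DXC and at 4.79, 5.32 and 5.48 in DX, so the lines overlapped (difference 0.13, SE 0.32; adjusted p = 0.834). At 3 h it was at 5.45, 5.61 and 5.46 in DXC, against 5.30, 5.38 and 4.77 in DX. At 6 h the DXC arrays were at 4.25, 5.14 and 4.23, against 4.72, 4.96 and 5.16 in DX. The step from 3 h to 6 h was downward in all 3 DXC experiments, by -1.20, -0.47 and -1.23, and in DX it was -0.58, -0.42 and 0.39.

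From 9 h on every DXC array of PRX112 was below every DX array of the same hour, at 13 of the 15 later hours, against 10 of 15 for PRX74. Over all features and these 15 hours together, DXC was lower with no overlap in 6.25% of cases. At 15 h PRX112 was at 3.87, 4.42 and 4.66 in DXC, against 5.45, 6.10 and 6.05 in DX. At 36 h it was at 4.36, 3.75 and 3.41 in DXC, against 4.43, 5.49 and 5.81 in DX, and at 45 h at 3.79, 3.52 and 3.39, against 4.10, 5.92 and 4.91. The gap at 36 h and 45 h was thus narrow in experiment 1 and wide in experiments 2 and 3. Unlike PRX74, PRX112 had its lowest DXC mean at the last hour (3.56 ± 0.20 at 45 h, against 4.53 ± 0.32 at 12 h; SD, n = 3), and from 12 h to 45 h its DXC values changed by -0.48, -0.90 and -1.50 in the 3 experiments. In DX the PRX112 values changed by -1.15, 0.71 and -1.06 over the same hours. The difference between the genes in their DXC course from 12 h to 45 h was not tested.

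Relative to 0 h, the PRX112 difference between the lines was -1.24 (SE 0.35) in the middle window and -1.26 (SE 0.35) in the late one, and with adjusted p of 0.122 and 0.101 neither passed the test over all features. The experiments gave -1.26, -1.40 and -1.05 in the middle window and -0.95, -1.56 and -1.28 in the late window. With the experiment as a replicate block in the fit, the same differences had adjusted p of 0.0322 and 0.0280 and were called. In the early window the difference was -0.45 (adjusted p = 0.862; -0.49, -0.46 and -0.39 in the experiments). Without subtraction of the 0 h difference PRX112 was lower in DXC, at -1.10 over the middle window (adjusted p = 3.1e-08) and -1.13 over the late one (adjusted p = 1.06e-10), and both were called whichever experiment was left out. With the sets of consecutive hours as a random block, the adjusted p in limma were 0.000457 and 2.16e-05.

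Within DXC, PRX112 was lower than at 0 h, at -0.99 over the middle window (adjusted p = 0.0158) and -1.43 over the late one (adjusted p = 0.00012). The middle value did not pass without experiment 2 (adjusted p = 0.418) or without experiment 3 (adjusted p = 0.138), and the late value did not pass without experiment 2 (adjusted p = 0.0545). In DX the same windows were at 0.25 and -0.16 (adjusted p = 0.897 and 0.926). By hour, PRX112 was called below 0 h in DXC at 7 of 15 hours, namely 18, 27, 33, 36, 39, 42 and 45 h, with -1.30 at 18 h and -1.77 at 45 h (adjusted p = 0.0289 and 0.000633). In DX it was called at 0 of 15 hours, with 1 at an unadjusted p under 0.05. No call against 0 h was left for PRX112 without experiment 2, and 1 was left without experiment 3.

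**Figure D2:**
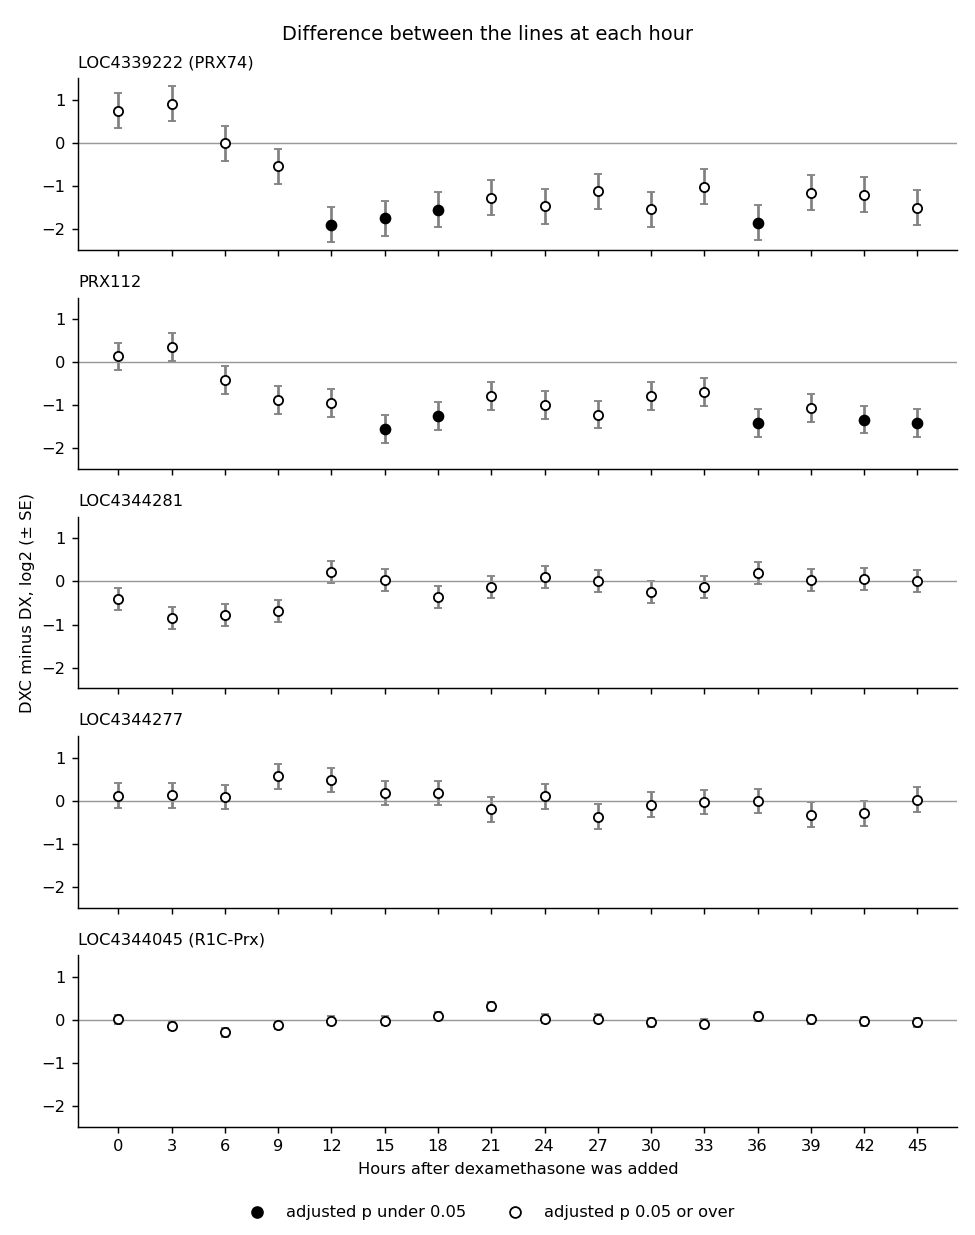
Difference DXC minus DX in log2 units at each hour (points, bars ± SE of the fit) for the 5 genes, the 0 h difference not subtracted, with filled points where the adjusted p is under 0.05. PRX74 had filled points at 12, 15, 18 and 36 h and PRX112 at 15, 18, 36, 42 and 45 h, all below 0, and the other 3 genes had none.

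Hour by hour and without subtraction, the test between the lines called PRX74 lower in DXC at 4 of 15 hours. These were 12 h (3.72-fold, difference -1.89, adjusted p = 0.00682), 15 h (-1.75, adjusted p = 0.0169), 18 h (-1.55, adjusted p = 0.0472) and 36 h (-1.84, adjusted p = 0.00942), and the difference was below 0 at 14 of 15 hours. PRX112 was called lower at 5 hours, 15 h (2.92-fold, -1.55, adjusted p = 0.00477), 18 h (-1.25, adjusted p = 0.0429), 36 h (-1.40, adjusted p = 0.0158), 42 h (-1.33, adjusted p = 0.0265) and 45 h (-1.41, adjusted p = 0.0148). In all, 9 of the 75 pairs of gene and hour were called, or 12.0%, every one lower in DXC. Of all pairs of feature and hour, 0.648% were called in either direction and 0.186% were called lower. The hours of a gene share experiments and the genes share every array, so these pairs are not independent. With the experiment as a replicate block, 8 hours were called for PRX74 and 7 for PRX112. Without experiment 2 and without experiment 3 no hour was called for either gene, and without experiment 1 there was 1 hour for PRX74 and 5 for PRX112.

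The test of the whole course, a moderated F test of the line by time interaction over 15 contrasts, called PRX74 (adjusted p = 0.00203) and not PRX112 (adjusted p = 0.139), with 0.969% of all features called. PRX112 passed with the replicate block (adjusted p = 0.0131). For PRX74 the call was lost in each fit of only 2 experiments, with adjusted p of 0.0510, 0.148 and 0.764 when experiments 1, 2 and 3 were left out in turn. The time effect within DXC was called for both, with adjusted p of 4.77e-08 for PRX74 and 0.000101 for PRX112, against 5.37% of all features. Within DX it was called for neither (adjusted p = 0.906 and 0.705; 0.371% of all features).

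Across the 32 groups of line and hour, the means of PRX74 and PRX112 correlated by 0.89 (Pearson). Within the 16 hours of DXC the correlation was 0.87, and within those of DX it was 0.58. These groups share arrays, experiments and the step between the lines, so the values are a description only. LOC4344277 and LOC4344281, the close neighbours of PRX112 on chromosome 7, correlated with it by 0.11 and 0.03 over the 32 groups.

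**Figure D3:**
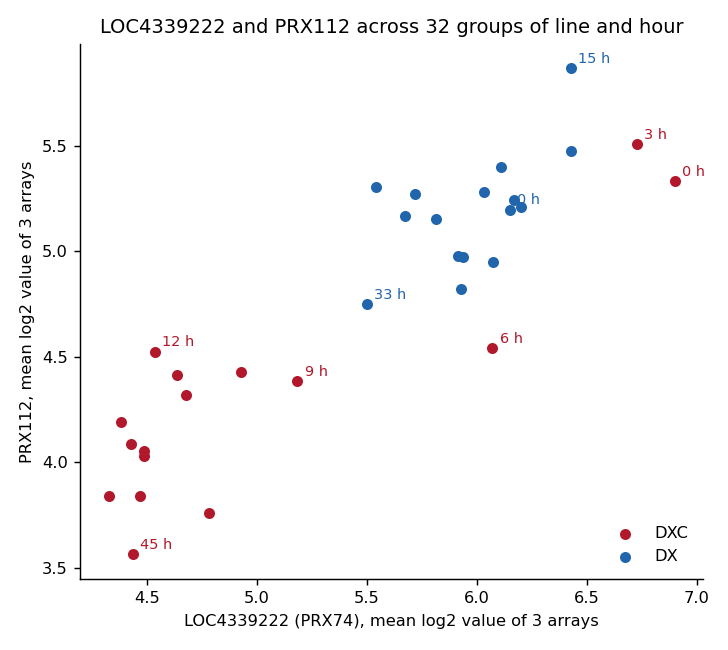
Mean log2 value of PRX112 (vertical axis) against that of LOC4339222, PRX74 (horizontal axis), 1 point per line and hour, each the mean of 3 arrays. The DXC points move from 6.90 and 5.33 at 0 h to 4.44 and 3.56 at 45 h, and the DX points stay between 5.50 and 6.43 for PRX74.

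The other 3 genes did not follow this course. LOC4344281, 1 gene away from PRX112, was at 3.89, 3.36 and 3.80 in DXC at 0 h, against 3.99, 4.04 and 4.23 in DX. At 9 h it was at 3.83, 3.60 and 3.55 in DXC and at 4.21, 3.85 and 4.98 in DX. Its DXC arrays were below the DX arrays with no overlap at 0, 3, 6 and 9 h, as were those of 9.01%, 12.5%, 15.2% and 11.2% of all features at these hours, and at no hour after that. The DX values of experiment 3 were high at 3, 6 and 9 h, at 4.86, 5.05 and 4.98, and at 12 h that experiment was at 3.47. Relative to 0 h its differences were -0.37, 0.37 and 0.39 in the early, middle and late windows (adjusted p = 0.858, 0.573 and 0.543), with an interval of ±2 SE from -0.96 to 0.22, from -0.18 to 0.93 and from -0.15 to 0.94. With an experiment left out they ran from -0.65 to -0.098, from 0.24 to 0.61 and from 0.092 to 0.55. Without subtraction the early difference was -0.77 (adjusted p = 4.22e-05), with -0.47, -0.50 and -1.34 in the experiments and -0.49 without experiment 3 (adjusted p = 0.0327). This was a comparison that called 61.4% of all features and in which the spread of the arrays differed between the lines as given above. The part of that spread in the difference was not tested.

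LOC4344277, the direct neighbour of PRX112, was not called in any comparison between the lines or with 0 h. Over all hours its lowest, median and highest values were 4.45, 5.04 and 6.07 in DXC, against 4.58, 5.05 and 6.17 in DX. At 12 h it was at 5.34, 5.40 and 6.07 in DXC and at 5.03, 5.30 and 5.07 in DX, the only hour at which every DXC array was above every DX array, as in 7.62% of all features. The difference at 12 h was 0.47 (SE 0.28, adjusted p = 0.625). At 39 h every DXC array was below every DX array, as in 4.84% of all features. The difference at 39 h was -0.33 (adjusted p = 0.867 in limma). The window differences were 0.14, 0.03 and -0.27 (adjusted p = 0.942, 0.972 and 0.708), with intervals of ±2 SE from -0.51 to 0.80, -0.59 to 0.66 and -0.88 to 0.34. A difference of the size seen for PRX74 in the middle window, -2.33, lay outside these intervals.

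LOC4344045 (R1C-Prx) had values between 2.66 and 3.34 on every array, close to the lowest value in the table, where a change may go unmeasured. Its median over all hours was 2.85 in DXC and 2.91 in DX. The window differences were -0.20, 0.06 and -0.03 (adjusted p = 0.815, 0.819 and 0.914). At 6 h it was at 2.74, 2.76 and 2.81 in DXC and at 2.99, 3.08 and 3.10 in DX, a difference of -0.29 (adjusted p = 0.197 in limma). Every DXC array was below every DX array at 3 h and 6 h, as in 12.5% and 15.2% of all features. At 21 h the order was turned, with 3.25, 3.03 and 2.78 in DXC and 2.66, 2.73 and 2.72 in DX (0.32, adjusted p = 0.139), and no overlap with DXC higher was found in 6.72% of all features at that hour.

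**Figure D4:**
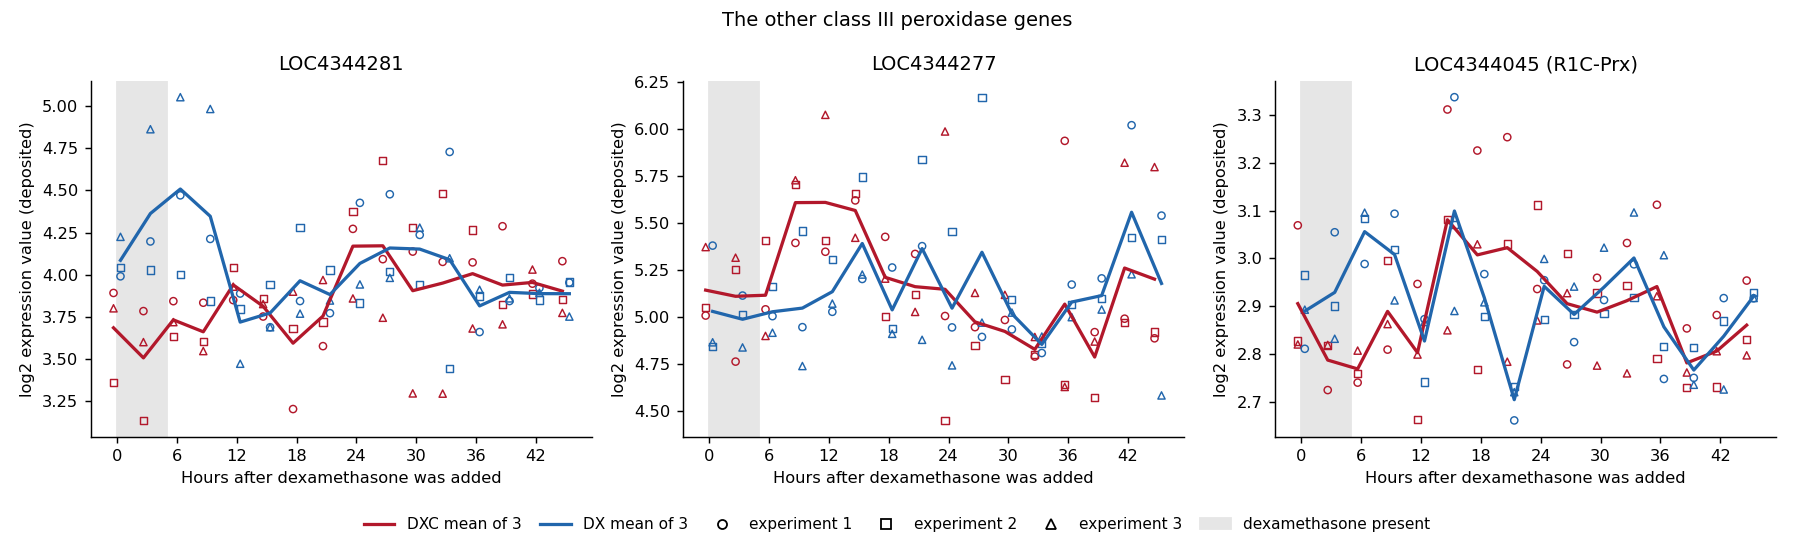
Deposited log2 expression values of LOC4344281, LOC4344277 and LOC4344045 against hours after dexamethasone was added, drawn as for PRX74 and PRX112, with a separate vertical scale for each gene. The 2 lines overlap at most hours, the DXC points of LOC4344281 are below those of DX at 0 to 9 h, and LOC4344045 stays between 2.66 and 3.34.

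As a group the 5 genes had no common direction. The median of their differences was -0.37, 0.03 and -0.27 in the early, middle and late windows, against -0.00091, -0.017 and -0.021 over all features. The number of genes below 0 was 4, 2 and 4 of 5, while 50.1%, 52.2% and 52.7% of all features were below 0. Before induction 0 of 5 were called by limma (0 at an unadjusted p under 0.05), against 0.0273% of all features. Against its own 0 h, DXC had 20 of 75 pairs of gene and hour called, or 26.7%, all of them lower and all in PRX74 and PRX112, against 0.714% of all pairs. DX had 0 of 75 called by limma, with 2 at an unadjusted p under 0.05, against 0.00255% of all pairs.

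**Figure D5:**
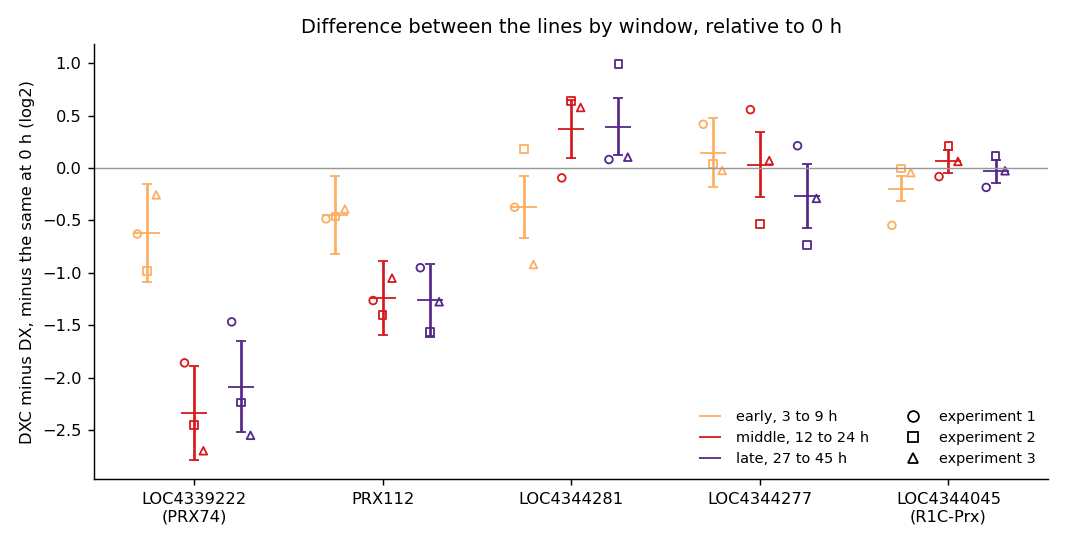
Difference DXC minus DX, minus the same at 0 h, in log2 units (vertical axis) for the 5 genes in the 3 windows, with a line and bar for the fit (± SE) and a symbol for each of the 3 experiments. PRX74 is at -2.33 and -2.08 in the middle and late windows and PRX112 at -1.24 and -1.26, and the other 3 genes lie between -0.37 and 0.39.

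Genes that act beside class III peroxidases in wall building and peroxide turnover were counted in 6 lists with 120 features. They were the monolignol pathway, which makes the phenolic units of lignin (21 features), laccases, which also oxidise monolignols (12), and an NADPH oxidase, a source of apoplastic superoxide (1). The others were enzymes that remove peroxide and superoxide (14), the wall-loosening expansins and xyloglucan-modifying enzymes (47), and Casparian strip and CASP-like membrane proteins (25). At an unadjusted p under 0.05 in limma there were 14, 20 and 20 of the 120 in the early, middle and late windows. The share of all features at that level was not counted, so these numbers show neither an excess nor a lack. After adjustment 0 were called in the early window (0.333% of all features) and 0 in the middle window (0.347%). In the late window 1 was called, or 0.833% against the 0.248% of all features. The 1 gene was LOC4338204 (OsCASPL1C2), a CASP-like membrane protein gene, at -1.27 (SE 0.31; adjusted p = 0.0445), with means of 5.35 at 0 h and 4.83 in the late window in DXC, against 4.93 and 5.68 in DX. Its adjusted p was between 0.174 and 0.395 in the fits of only 2 experiments.

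Members of these lists lay on both sides of 0. Monolignol genes had medians of -0.11, -0.0041 and 0.067 in the 3 windows, and laccases -0.14, -0.06 and -0.09. The peroxide-removing enzymes were at 0.02, -0.20 and -0.25, with 12 of 14 below 0 in the middle and in the late window and 0 called. Wall-loosening genes were at -0.03, 0.14 and 0.03, with 19 below and 28 above 0 in the middle window, and the Casparian strip list at -0.02, -0.02 and -0.14. The NADPH oxidase OsrbohB was at -0.01, -0.44 and -0.56 and was not called.

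Marker lists of other tissues of the seedling base gave these values beside the fall of PRX74. The mean level over 5 leaf photosynthesis genes ran from 5.55 to 6.34 in DXC and from 5.49 to 6.27 in DX in the middle window, and at 0 h from 6.28 to 6.54 in DXC and from 5.82 to 6.26 in DX. Their median difference relative to 0 h was -0.46 in the middle and in the late window, with 4 of 5 below 0 and 0 called. The 6 shoot meristem genes ran from 4.65 to 5.05 in DXC and from 4.82 to 5.09 in DX in the middle window (0 called), and 14 seed genes from 3.01 to 3.28 in DXC and from 3.04 to 3.25 in DX (0 called). Of 5 root patterning genes, WOX11 (LOC4344325), a homeobox gene of crown root growth, was called lower, at -1.23 in the middle and -1.25 in the late window (adjusted p = 0.00273 and 0.00227). The middle value was -1.22 without experiment 2 and -0.87 without experiment 3 (adjusted p = 0.300 and 0.359), and the late value -1.16 and -0.94 (adjusted p = 0.330 and 0.182), so both calls were lost there. The other 4 genes of that list were not called, and the list had medians of -0.062, -0.16 and 0.029 in the early, middle and late windows, with 4 of 5 below 0 in the middle and 3 of 5 above 0 in the late window. The part of tissue make-up in the fall of PRX74 and PRX112 was not tested.

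The features most like each gene over the 32 group means, 3 per gene by Pearson correlation, had LOC symbols, and 1 had a named synonym. They were picked on the same means that give the window differences, so a direction shared with the gene follows from the choice. For PRX74 they were LOC9266285 (0.96), LOC4330177 (0.96) and LOC4325311 (0.95). LOC9266285, on chromosome 2, was at -1.54 in the middle window (adjusted p = 0.00972, but 0.0665, 0.331 and 0.200 without experiments 1, 2 and 3), with means of 7.05 at 0 h and 5.73 in that window in DXC, against 6.68 and 6.90 in DX. For PRX112 they were LOC4344244 (0.91), which is also on chromosome 7, LOC4349876 (0.91) and LOC4341132 (0.91). LOC4349876 was at -1.26 in the late window (adjusted p = 0.0445, but from 0.0796 to 0.541 with an experiment left out). LOC4344281 was most like LOC4347138 (0.95), LOC4332300 (0.93) and LOC4342972 (0.93), which were all below 0 early and above 0 in the middle and late windows with 0 called. For LOC4344277 the highest were LOC4337976 (0.76), LOC4332506 (0.76) and LOC4343683 (0.74), and for LOC4344045 they were LOC4351803 (0.74), LOC4340403 (0.67) and LOC4348365 (CSLF7, a cellulose synthase-like gene, 0.66). Of these 15 features 6 were also among the 3 highest by Spearman correlation.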

How the data were processed

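RNA of 2 lines, 16 hours and 3 experiments was hybridised after Affymetrix WT PLUS labelling (per the labels). The deposited table holds log2 expression values of 36643 features, which the authors normalized with GCRMA per the submitters' processing notes (version not given in the sources used here). Every column had a sample. Gene symbols came from the platform annotation (24161 features with 1 symbol, 90 with several, 12392 with none) and synonyms from the RefSeq table of ASM3414082v1, in which all 24161 were found. The 32 groups were fitted together with limma 3.58.1 in R 4.3.3 (lmFit, eBayes with an intensity trend). The fit was also run on simulated data with independent arrays, which cannot show how correlated hours affect the p-values. A feature was called at a Benjamini-Hochberg adjusted p under 0.05, over all features, or over all features and 15 hours for the hourly tests. Named genes were the 5 members, 3 most correlated features for each, and called features of the related and marker lists. The members, windows and lists were chosen with earlier results of these data known. The series design text says that replicate numbers mark independent experiments, so they pair the lines. The main fit had no term for the experiment, and the replicate block below adds it. As a check, the deviations of the 2 lines from their group means were correlated at each hour. The mean of the 48 correlations for equal numbers was 0.05, with 16 over 0.1 and the lowest at -0.64. For unequal numbers the mean was -0.03. Deviations from a mean of 3 arrays sum to 0, so the mean for unequal numbers follows largely from that for equal numbers. Alternatives were the replicate block, quantile normalization, sets of 4 consecutive hours as a random block, each experiment left out, features with a mean under 4 left out, eBayes without trend, no 0 h subtraction, and only a window's hours in the fit. Dirigent genes matched 0 features. Promoter and protein sequences, and the CRL1 transcript itself, were not analysed here.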

Additional observations from a re-analysis of the deposited data

Results flagged for a closer look

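The change of PRX74 (LOC4339222) relative to 0 h differed between the lines in 2 windows by the test of that difference. In the middle window the difference was -2.33, from a DXC change of -2.25 and a DX change of 0.09. In the late window it was -2.08, from -2.43 in DXC and -0.34 in DX. At 0 h the DXC arrays were higher by 0.75, a difference that was not called and that enters both values.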

How the results depend on the processing

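Of 254 refitted values that answer a comparison, 214 kept their direction and their side of the threshold, or for counts stayed close to the first value. An uncalled value that stayed uncalled with the same sign is among these. Of the rest, 19 were counts that moved, 8 values gained a call, 7 lost one and 6 changed sign. PRX74 kept its middle and late calls with the replicate block, quantile normalization, array sets, the filter, no trend, no subtraction and only the window's hours. With 1 experiment left out its differences ran from -2.57 to -2.15 (middle) and from -2.39 to -1.85 (late), not called without experiment 2 or 3, and its interaction adjusted p from 0.0510 to 0.764. Fewer arrays stand behind these fits. With no 0 h subtraction the early difference of PRX74 was 0.13 (-0.19 without experiment 3, 0.37 without experiment 2 and -0.0031 with quantile normalization), PRX112 was at -1.10 and -1.13 in the middle and late windows and was called, LOC4344281 was at -0.77, -0.027 and -0.0081, with the early value called, and LOC4344045 was at -0.18 in the early window, also called, in a comparison that called 61.4% of all features. That LOC4344045 call was lost with quantile normalization (-0.12, adjusted p = 0.0673), with array sets (adjusted p = 0.0789) and without experiment 1 (-0.13, adjusted p = 0.0876). The replicate block called PRX112 in the middle (-1.24) and late window (-1.26) and in the interaction (adjusted p = 0.0131), and only the window's hours called it in the middle window (-1.24). It raised the members called to 2 in the middle and 2 in the late window, the pairs of gene and hour to 15 and the related-list features in the late window to 2. No other window, 0 h or interaction call of the 5 genes changed with it. Array sets gave 15 pairs, 6 related-list features early and 0 late, called LOC4344281 lower in DXC at 3 h (-0.86, adjusted p = 0.0319) and PRX74 lower than at 0 h over the early window of DXC (-0.90, adjusted p = 0.00384), and quantile normalization 13 pairs and 0 late. With 1 experiment left out, the members called ranged from 0 to 1 in the middle and in the late window, the pairs from 0 to 6, those against 0 h in DXC from 4 to 16, and the related-list features late were 0. LOC4344281 ranged from -0.65 to -0.098 early, 0.24 to 0.61 in the middle and 0.092 to 0.55 in the late window. LOC4344277 ranged from 0.0075 to 0.23 early, -0.23 to 0.31 in the middle, -0.51 to -0.039 in the late window and -0.084 to 0.36 at 0 h. LOC4344045 ranged from -0.30 to -0.025 early, -0.010 to 0.14 in the middle, -0.11 to 0.045 in the late window and -0.11 to 0.093 at 0 h. None of these was called. Over all features the early, middle and late counts were 122, 127 and 91, with the block 184, 227 and 175, with array sets 802, 48 and 32, with quantile normalization 53 late, and with an experiment left out 4 to 55, 5 to 47 and 1 to 30. The cause of these shifts was not tested. LOC4344281 and LOC4344045 did not pass the filter on dim features and have no value there.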
